A study of Homo sapiens with 16 samples.

Results

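BMAL1 knockout (KO) MDA-MB-231 cells were set against wild-type (WT) MDA-MB-231 cells, both under cisplatin, by RNA-seq. The comparison covers the genes that reached 5 FPKM or more in at least one of the 2 groups, which were 9235 of 60658 genes in the table. FPKM is fragments counted per length of transcript and per unit of sequencing depth. MDA-MB-231 is a human cell line grown from a triple-negative breast tumour, and cisplatin is a platinum drug that crosslinks DNA. The KO cisplatin and WT cisplatin groups had 2 samples each, which the labels call biological replicates, and the series also holds KO and WT cells under doxorubicin, under tunicamycin and under control conditions, 16 samples in 8 groups. All were kept at passage 10-15 per the labels. The KO genotype is written BMAL1 -/-, without a clone, a guide or the edited part of the gene, and what separates KO from WT samples cannot be told apart from what separates cultures or clones. The sources used here give neither the cisplatin dose nor the time. In the series' design cisplatin and doxorubicin are the agents that start apoptosis, and tunicamycin is the negative control.

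The deposited table holds 1 FPKM value per group and gene, made from both replicates, so the replicates have no visible spread and no test of the present work was possible. A gene is said to be called, to rise or to fall where the q-value in the authors' deposited table was at most 0.05. The ratio used throughout is log2 of KO FPKM plus 1 over WT FPKM plus 1, which understates the change of low genes. Of the 9235 genes, 9221 were tested by the authors and 8767 are protein coding. Both groups had a similar reach, with 21779 genes above 0 FPKM in KO cells and 22592 in WT cells. The 5th percentile of values above 0, a rough sign of depth, was 0.0239 FPKM in KO cells and 0.0189 FPKM in WT cells. The number of fragments per library is unknown. One protocol label speaks of fibroblast lines, while the others name MDA-MB-231 cells. VIM, a mesenchymal filament protein high in this line, was at 2883 FPKM in KO cells and 4012 FPKM in WT cells, and the epithelial cadherin CDH1 was at 0.0550 and 0.00632 FPKM. The estrogen and progesterone receptors ESR1 and PGR were listed at 0 in both groups. Of 10 fibroblast markers, COL1A1 and PDGFRB reached 5 FPKM, DCN, LUM and DPT were listed at 0 in both groups, and the list summed to 15.6 FPKM in KO cells and 9.07 FPKM in WT cells. Of 12 leukocyte markers 5 reached 5 FPKM, with a sum of 343 FPKM in KO cells and 235 FPKM in WT cells, while the defining genes PTPRC, SPI1 and ITGAM were listed at 0 in both.

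BMAL1 (gene symbol ARNTL) is a transcription factor that pairs with CLOCK or its paralog NPAS2 and binds the E-box, the motif CACGTG, in front of clock genes. Among its targets are the repressors PER and CRY, which close the loop by blocking the pair, and the REV-ERB receptors NR1D1 and NR1D2, which repress ARNTL itself. The clock also sets the timing of output genes such as DBP and TEF, and in cancer cells it touches on the cell cycle and on the response to DNA damage.

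The E-box positions in front of clock genes are shown here for 4 of the 7 clock genes that carry CACGTG, since NR1D2 and CIART were called lower and PER1 and TEF higher under cisplatin. TEF has a copy in front of each of 2 starts, of which 1 is shown. The stretches are from RefSeq promoters (GRCh38.p14), within the 250 bases before a gene start, written 5′ to 3′ on the gene's strand, with CACGTG in capitals.
NR1D2, chr3:23945936-23946051, plus strand, in front of the more downstream RefSeq start: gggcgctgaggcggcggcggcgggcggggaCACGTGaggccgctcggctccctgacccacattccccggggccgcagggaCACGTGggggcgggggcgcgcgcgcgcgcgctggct
CIART, chr1:150282395-150282532, plus strand: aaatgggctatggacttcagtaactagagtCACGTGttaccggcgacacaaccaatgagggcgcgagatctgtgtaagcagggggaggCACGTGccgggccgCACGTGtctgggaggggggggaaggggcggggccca
PER1, chr17:8152542-8152607, minus strand: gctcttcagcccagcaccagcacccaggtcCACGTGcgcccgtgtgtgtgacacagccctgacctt
TEF, chr22:41367230-41367295, plus strand, in front of the more upstream start: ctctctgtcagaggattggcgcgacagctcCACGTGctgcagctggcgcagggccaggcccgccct
The motif is its own reverse complement, so one search covers both strands. It was found in front of 7 of the 23 clock genes with a RefSeq promoter, and the window before PER2, NR1D1, DBP, CRY1 or CRY2 did not hold these letters. Among all tested members with a matched promoter, 887 of 7388 genes held CACGTG in at least one such window. The share was 20 of 186 (10.8%) for genes called and at least 2-fold higher in KO cells. It was 22 of 220 (10.0%) for those called and at least 2-fold lower. Both lay below the share of all tested members, 887 of 7388, and above the 7.73% of all 27305 genes of the promoter table. These differences in share were not tested. A match is a description of the letters, not a bound site.

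ARNTL itself (chr11:13276652-13387266, plus strand, GRCh38, whole gene) was below the 5 FPKM bound under cisplatin, at 0.941 FPKM in KO cells and 1.26 FPKM in WT cells. Its log2 ratio was -0.22, and q was 0.467 in the authors' deposited table, so it was not called. Group FPKM counts all exons, and a small edit that leaves the transcript in place would not be visible in it. In doxorubicin ARNTL was at 0.474 FPKM in KO cells and 1.31 FPKM in WT cells and was called lower, and in tunicamycin it was at 2.24 and 3.25 FPKM and was not called. In control it stood at 0.889 FPKM in KO cells and 5.67 FPKM in WT cells and was called lower. The KO value was thus the lower one in each of the 4 tables, with the widest gap in control, and the differences between tables were not tested.

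Of the 27 clock genes looked for, 15 reached 5 FPKM in one cisplatin group, and of these KO cells had 7 called higher and 3 lower. Among all 9221 tested members 33.8% were called higher and 29.0% lower, so a call by itself is common. NR1D2 (chr3:23945260-23980618, plus strand), the REV-ERB beta repressor, fell to 3.0 FPKM in KO cells, against 18.1 FPKM in WT cells, a log2 ratio of -2.25. The gene overlaps NKIRAS1, and the sources used here do not say whether counting used strand. Its paralog NR1D1 had 12.7 FPKM in KO cells and 11.5 FPKM in WT cells and was not called. Of the repressors, PER1 rose to 12.7 FPKM in KO cells, against 8.67 FPKM in WT cells, and CRY2 rose to 5.26 FPKM, against 2.90 FPKM. CRY1, at 18.1 FPKM in KO cells and 18.3 FPKM in WT cells, was not called. PER2 was under the 5 FPKM bound, at 4.45 FPKM in KO cells and 1.56 FPKM in WT cells, and was called higher with a log2 ratio of 1.09. Output genes of the same bZIP family, DBP at 6.39 FPKM in KO cells and 4.60 FPKM in WT cells and the low TEF at 3.73 and 1.76 FPKM, were both called higher. The E-box repressor BHLHE40 fell to 8.93 FPKM in KO cells, against 14.8 FPKM in WT cells. CLOCK fell to 3.27 FPKM, against 5.02 FPKM in WT cells, while NPAS2 was not called, at 13.9 FPKM in KO cells and 14.4 FPKM in WT cells. CIART, a further repressor, was low in both groups, at 0.505 FPKM in KO cells and 1.98 FPKM in WT cells, and was called lower. Of the 7 clock genes with CACGTG in a window, NR1D2, CIART and BHLHE40 were thus called lower and PER1 and TEF higher. Of the other two, TIMELESS, a replication fork protein, was called higher, at 24.2 FPKM in KO cells and 19.3 FPKM in WT cells, and the repressor BHLHE41 was not called, at 3.14 and 2.17 FPKM.

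Most called genes moved little. KO levels were called higher for 3117 genes and lower for 2673, and 5241 of these 5790 calls were under 2-fold. Calls of at least 2-fold numbered 235 higher (2.55% of tested members) and 314 lower (3.41%). At least 4-fold higher were 41 and at least 4-fold lower 44. The median ratio over members was 0.04, with the 25th percentile at -0.26 and the 75th at 0.29, so the groups were centred on each other. The smallest q in the authors' deposited table, 0.000167, is shared by 4267 genes and does not rank them. In bulk RNA, fewer cells of a kind and less RNA per cell cannot be told apart. The plot of the ratio against level shows the calls across the whole range of levels.

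**Figure D1:**
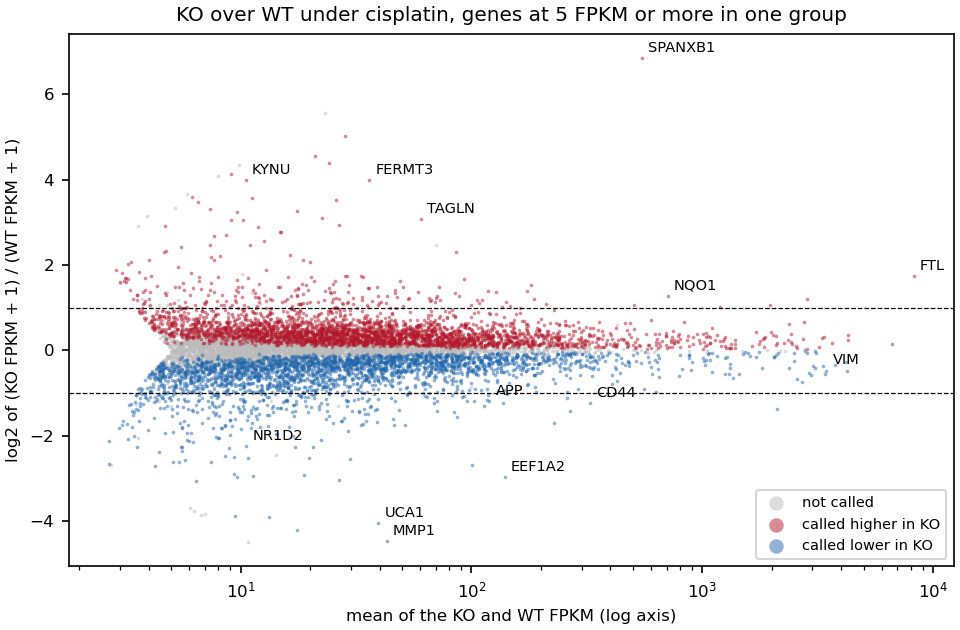
Each point is 1 tested gene at 5 FPKM or more in one group, with the mean of the KO and WT FPKM on a log axis and the log2 ratio of KO over WT on the vertical axis. Red points were called higher and blue points lower in KO cells at q of at most 0.05, grey points were not called, and dashed lines mark a 2-fold change, which 235 called genes passed upward and 314 downward. The 14 genes not tested are not drawn.

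The SPANX family led the rises. SPANXB1 (chrX:141002591-141003706, plus strand), a testis antigen of the sperm nucleus, stood at 1090 FPKM in KO cells and 8.48 FPKM in WT cells. SPANXC had 56.1 FPKM in KO cells and 0.748 FPKM in WT cells, and SPANXA2 and SPANXD showed the same direction. These copies are near identical, so how fragments were split among them is uncertain, but the family summed to 1202 FPKM in KO cells and 10.5 FPKM in WT cells. Other testis families did not show it, since of 76 MAGE, GAGE, PAGE and CT45 genes 2 reached 5 FPKM and 1, XAGE2, was called higher, at 8.68 FPKM in KO cells and 5.17 FPKM in WT cells. IGFN1 (chr1:201190825-201228952, plus strand), an immunoglobulin and fibronectin domain gene of muscle, had 18.0 FPKM in KO cells and 0.0751 FPKM in WT cells. FERMT3 (chr11:64206678-64223886, plus strand), the integrin activator kindlin-3 of blood cells, rose to 68.9 FPKM in KO cells, against 3.39 FPKM in WT cells. The blood cell actin bundler LCP1, on chromosome 13 above 30 Mb, rose to 14.0 FPKM, against 1.34 FPKM in WT cells. The smooth muscle actin binder TAGLN had 109 FPKM in KO cells and 12 FPKM in WT cells, while the defining smooth muscle genes MYH11 and ACTA2 were at 0.0266 and 0.338 FPKM in KO cells, against 0.0431 and 1.15 FPKM in WT cells. The 8 smooth muscle markers summed to 123 FPKM in KO cells and 20.6 FPKM in WT cells, 1 of them at 5 FPKM, and the 8 endothelial markers summed to 3.27 and 1.43 FPKM with 0 at 5 FPKM. FERMT3 overlaps TRPT1 and TAGLN overlaps PCSK7. The part of other cell types in these rises was not tested.

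The other large rises included secreted signals and an enzyme. The cytokine IL1B (chr2:112829751-112836903, minus strand) had 21.4 FPKM in KO cells and 0.889 FPKM in WT cells. CSF3, which encodes the granulocyte growth factor G-CSF, had 12.2 FPKM in KO cells and 0.0962 FPKM in WT cells. KYNU (chr2:142877498-143055832, plus strand), the kynureninase of tryptophan breakdown, had 20.7 FPKM in KO cells and 0.362 FPKM in WT cells. The adhesion molecule CADM4 rose to 48.3 FPKM, against 3.28 FPKM in WT cells, and the secreted protein OLFML3 to 14.2 FPKM, against 0.540 FPKM. The long noncoding RNA MIR3681HG, which spans 730 kb, had 47.2 FPKM in KO cells and 1.30 FPKM in WT cells. The 12 largest rises had log2 ratios between 3.31 and 6.85.

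The largest falls held a group of secreted and matrix proteins. MMP1 (chr11:102789920-102798160, minus strand), the interstitial collagenase, had 2.76 FPKM in KO cells and 83.2 FPKM in WT cells. EFEMP1 (chr2:55865967-55924139, minus strand), the matrix protein fibulin-3, had 0.883 FPKM in KO cells and 34.1 FPKM in WT cells. HTRA1 (chr10:122458551-122514908, plus strand), a secreted serine protease, fell to 4.99 FPKM, against 48.4 FPKM in WT cells. To this group also belong the growth factor CLEC11A, at 0.323 FPKM in KO cells and 18.5 FPKM in WT cells, the cytokine IL24, at 0.765 and 25.8 FPKM, and the matricellular protein NOV, at 1.39 and 17.9 FPKM. Among the rest were membrane proteins. SPNS2, the exporter of sphingosine-1-phosphate, which overlaps MYBBP1A, was at 0.580 FPKM in KO cells and 12.2 FPKM in WT cells, and stomatin, STOM, at 3.58 and 33.9 FPKM. GPER1 (chr7:1082208-1093815, plus strand), a membrane receptor for estrogen, had 1.45 FPKM in KO cells and 17.3 FPKM in WT cells, and it overlaps C7orf50 on a segment of chromosome 7 whose genes were lower. GRAMD1B, a cholesterol transfer protein, fell to 1.83 FPKM, against 20.9 FPKM in WT cells. The elongation factor EEF1A2 (chr20:63488012-63499322, minus strand) was the most abundant of the 12, at 30.8 FPKM in KO cells and 248 FPKM in WT cells, and the long noncoding RNA UCA1 stood at 3.61 and 75.4 FPKM.

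**Figure D2:**
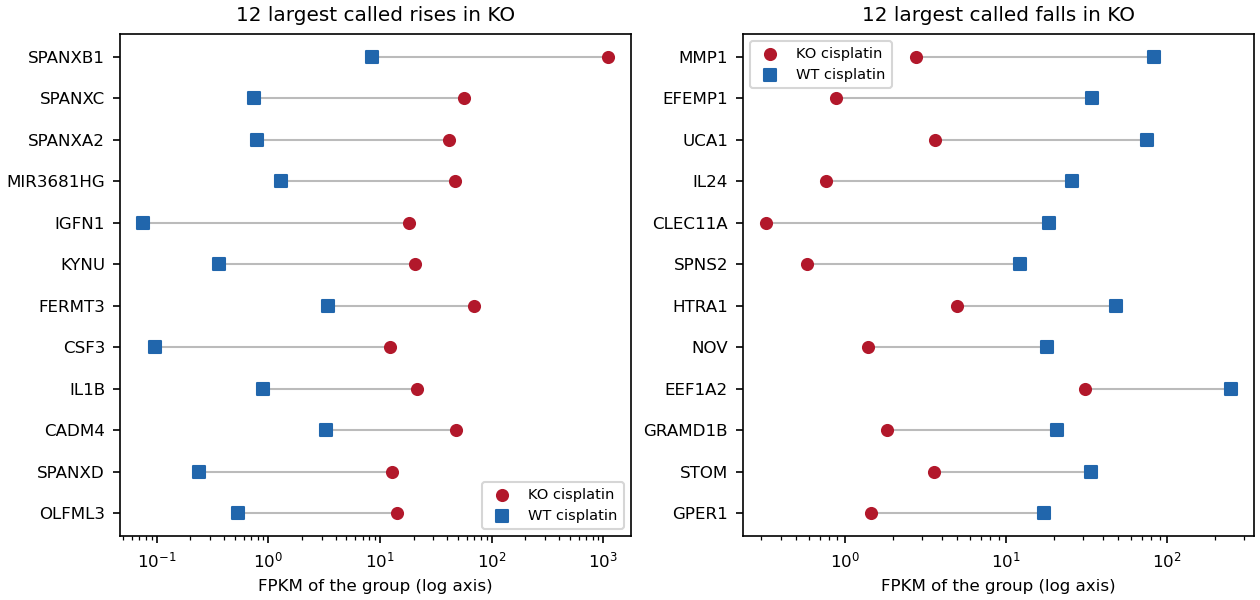
FPKM of the KO cisplatin group (red circles) and the WT cisplatin group (blue squares) on a log axis, for the 12 largest called rises on the left and the 12 largest called falls on the right, each value being 1 group of 2 pooled replicates. SPANXB1 reaches 1090 FPKM in KO cells, and EEF1A2, at 30.8 FPKM in KO cells and 248 FPKM in WT cells, is the most abundant gene of the right panel.

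The genes with large differences were mostly called in the same direction without cisplatin too, where calls of any size were counted. Of the 235 genes at least 2-fold higher under cisplatin, 190 were also called higher under doxorubicin, 222 under tunicamycin and 217 in control, and 177 (75.3%) in all 3. Over the same members, the calls of a higher KO level made up 28.9% of tested genes in doxorubicin, 34.6% in tunicamycin and 27.0% in control. Of the 314 genes at least 2-fold lower, 246, 282 and 258 were called lower in doxorubicin, tunicamycin and control, and 213 (67.8%) in all 3, beside 23.6%, 25.3% and 24.3% of the same members in each table. The tables share no libraries but share the cell lines. Some ratios, which hold the added 1 FPKM, differed in size all the same. IGFN1 had a log2 ratio of 4.14 under cisplatin, against 1.86 in doxorubicin, 2.42 in tunicamycin and 2.53 in control. GPER1 had -2.90 under cisplatin, against -0.51, -1.72 and -1.91. CSF3 had 3.59 under cisplatin, against 1.44, 4.57 and 3.82. These differences between tables were not tested.

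Part of the large calls followed chromosome position. Among 141 tested members on chromosome 13 above 30 Mb, 119 had a higher call and 8 a lower one, with a median log2 ratio of 1.08, and they made up 77 of the 235 genes called at least 2-fold higher. On chromosome 7 below 30 Mb, 79 of 83 tested members were called lower and 1 higher, with a median of -1.14, and they made up 49 of the 314 genes called at least 2-fold lower. The medians of the same genes in doxorubicin, tunicamycin and control were 0.69, 0.99 and 0.77 for chromosome 13 and -0.69, -1.10 and -0.95 for chromosome 7. Chromosome 9 was lower along its length, with 263 genes called lower, 13 higher and a median of -0.39 over 367 members. A milder upward shift was seen on chromosome 14, with 167 genes called higher, 49 lower and a median of 0.26. Of 263 windows of 10 Mb with 10 members or more, 10 had a median of at least 0.5 and 4 of at most -0.5. Shifts were also seen outside the 2 segments. The chromosome 11 window that holds CD44 had a median of -0.46 over 26 members, and -0.64 in control. The chromosome 8 window with TNFRSF10A and TNFRSF10B had -0.48 over 44 members, and -0.28 in control. Genes named here that lie in the 2 segments or in such windows carry that shift beside their own values.

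The gene lists below were read as counts of calls among tested members, set beside the 33.8% higher and 29.0% lower of all members. Of 26 tested genes of glutathione metabolism and the NRF2 response, 21 were called higher and 3 lower, with a median log2 ratio of 0.27. The iron storage subunits stood out by level. FTL (chr19:48965301-48966878, plus strand) rose to 12656 FPKM in KO cells, against 3792 FPKM in WT cells, and FTH1 to 3949 FPKM, against 1724 FPKM. NQO1 (chr16:69706996-69726951, minus strand), a quinone reductase, rose to 1003 FPKM, against 413 FPKM in WT cells. AKR1C1, an aldo-keto reductase, had 13 FPKM in KO cells and 2.26 FPKM in WT cells. SLC7A11, the cystine importer, rose to 11.8 FPKM, against 5.18 FPKM. The 3 lower genes moved little, and they were HMOX1 (21.2 FPKM in KO cells and 24.8 in WT cells), TKT (311 and 344) and TXN (555 and 574). The list's median was smaller under cisplatin than in doxorubicin (0.55), tunicamycin (0.93) and control (0.63), a difference that was not tested. Metallothioneins, small metal-binding proteins that can also bind platinum, went the other way. Of 4 tested, 3 were called lower, with MT2A at 689 FPKM in KO cells and 944 FPKM in WT cells, MT1E at 75.5 and 145 FPKM and MT1X at 98.8 and 116 FPKM.

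DNA repair genes were more often higher than lower. Cisplatin adducts are removed by nucleotide excision repair and, where they join both strands, by the Fanconi pathway with homologous recombination. Of 26 tested genes of homologous recombination and damage signalling, 13 were called higher and 0 lower, with a median of 0.25 and no change of 2-fold. XRCC2, a strand exchange factor, rose to 7.26 FPKM in KO cells, against 3.88 FPKM in WT cells, and BRCA2, a core recombination factor, to 6.51 FPKM, against 3.74 FPKM. BRCA2 lies on chromosome 13 above 30 Mb. The ubiquitin ligase RNF8 rose to 46.6 FPKM, against 30.1 FPKM, and XRCC3, which overlaps KLC1, to 47.8 FPKM, against 32.4 FPKM. BRCA1 was not called, at 14.6 FPKM in KO cells and 16.5 FPKM in WT cells. In the other 3 tables the median of this list lay between 0.02 and 0.05. Among 19 Fanconi and crosslink genes 8 were called higher and 2 lower, with a median of 0.22. MUS81, a nuclease subunit that overlaps CFL1, rose to 18.6 FPKM in KO cells, against 11.5 FPKM, and the BRCA2 partner PALB2 to 10.4 FPKM, against 6.76 FPKM. FANCD2, the protein that is ubiquitinated at a crosslink, fell to 7.6 FPKM, against 13.9 FPKM in WT cells, and its partner FANCI to 22.8 FPKM, against 27.9 FPKM.

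Nucleotide excision repair was split, with 10 genes called higher and 6 lower of 21. The nuclease ERCC5, on chromosome 13 above 30 Mb, rose to 28.7 FPKM in KO cells, against 10.3 FPKM in WT cells. ERCC1, a subunit of the other nuclease, rose to 108 FPKM, against 92.4 FPKM. The damage sensors fell, DDB2 to 8.93 FPKM in KO cells, against 19.2 FPKM in WT cells, and XPC to 5.17 FPKM, against 7.66 FPKM. XPA, the factor that checks the lesion, fell to 8.0 FPKM, against 12.4 FPKM, and lies on chromosome 9. RPA3, a subunit of the single-strand binding complex, fell to 20.5 FPKM, against 52.7 FPKM, and lies on chromosome 7 below 30 Mb. Of 6 tested mismatch repair genes 2 were higher and 2 lower. MLH3 rose to 6.63 FPKM, against 3.08 FPKM in WT cells, and PMS2, again on chromosome 7 below 30 Mb, fell to 3.13 FPKM, against 8.20 FPKM. Translesion synthesis had 3 higher and 2 lower calls of 13, and PCNA, the sliding clamp, stood at 182 FPKM in KO cells and 195 FPKM in WT cells.

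The drug's transporters showed no common direction. Of 13 tested platinum transport genes 3 were called higher and 4 lower. LRRC8A, the core subunit of the anion channel that lets cisplatin in, fell to 35.7 FPKM in KO cells, against 71.6 FPKM in WT cells, and overlaps CCBL1. The copper importer SLC31A1 fell to 12 FPKM, against 14.5 FPKM. LRRC8A and SLC31A1 both lie on chromosome 9, where 263 genes were called lower and 13 higher. The exporter ABCC3 rose to 11.1 FPKM, against 3.61 FPKM, and ABCG2 to 5.14 FPKM, against 2.33 FPKM, whereas ABCC1 fell to 6.12 FPKM, against 9.97 FPKM in WT cells. The copper pumps ATP7A and ATP7B were under 1 FPKM in both groups, at 0.215 and 0.521 FPKM in KO cells and 0.283 and 0.469 FPKM in WT cells.

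Genes of cell death moved in both directions and mostly by little. MDA-MB-231 cells carry a mutant p53. Of 20 tested p53 target genes 4 were called higher and 7 lower. CCNG1, an atypical cyclin, rose to 38.1 FPKM in KO cells, against 17.4 FPKM in WT cells, and the CDK inhibitor CDKN1A fell to 62.4 FPKM, against 76.9 FPKM. Of 10 BCL2 family genes 2 were higher and 4 lower. The survival gene BCL2L1 fell to 162 FPKM, against 235 FPKM in WT cells, the death effector BAX to 210 FPKM, against 254 FPKM, and the survival gene MCL1 to 130 FPKM, against 154 FPKM. Among 19 death receptor, caspase and inhibitor genes 6 were higher and 5 lower. The inflammatory caspase CASP4 rose to 74.2 FPKM, against 31.9 FPKM in WT cells, and the initiator CASP8 to 22.7 FPKM, against 11.3 FPKM. The TRAIL receptors TNFRSF10A and TNFRSF10B fell, to 17.4 FPKM and 26.5 FPKM in KO cells, against 26.6 FPKM and 33.1 FPKM in WT cells.

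The cell cycle lists divided by phase. Of 38 tested G2/M and spindle genes 29 were called lower and 6 higher, with a median of -0.33 and no change of 2-fold. CKS2, a CDK subunit, fell to 134 FPKM in KO cells, against 244 FPKM in WT cells, and ANLN, a scaffold of the cleavage furrow, to 62.3 FPKM, against 101 FPKM. The mitotic kinase PLK1 fell to 68.7 FPKM, against 89.1 FPKM. CDK1, the mitotic kinase of entry, rose to 110 FPKM, against 93.2 FPKM in WT cells, and cyclin CCNA2 to 65.8 FPKM, against 56.6 FPKM. In the other 3 tables the list's median lay between -0.44 and -0.21. Of 21 G1/S genes 10 were higher and 6 lower. Cyclin E1, CCNE1, rose to 42.8 FPKM, against 20.8 FPKM in WT cells, SKP2, which marks CDK inhibitors for breakdown, to 32.5 FPKM, against 16.3 FPKM, and cyclin D1, CCND1, fell to 126 FPKM, against 222 FPKM. S-phase replication genes had 15 higher and 5 lower calls of 35, among them POLE2, a polymerase subunit, at 23.7 FPKM in KO cells and 14.5 FPKM in WT cells.

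Protein turnover and antigen display were higher. Of 31 proteasome genes 25 were called higher and 4 lower, with a median of 0.18 and no change of 2-fold, as for PSMB5, a catalytic subunit, at 307 FPKM in KO cells and 204 FPKM in WT cells. In antigen presentation 15 of 19 genes were called higher and 2 lower, with a median of 0.38. In doxorubicin, tunicamycin and control the antigen list had medians of 0.75, 0.76 and 0.81, and the proteasome list 0.23, 0.22 and -0.05. Such differences between tables were not tested. CD74, the invariant chain of MHC class II, rose to 197 FPKM, against 96.0 FPKM in WT cells, and HLA-DRA to 7.13 FPKM, against 2.23 FPKM. Copies of HLA genes are alike, so HLA-DRB1, at 5.47 FPKM in KO cells and 2.05 FPKM in WT cells, is less certain. Heat shock chaperones had 12 higher and 6 lower calls of 19, with HSPH1, on chromosome 13 above 30 Mb, at 195 FPKM in KO cells and 88.2 FPKM in WT cells. Interferon-stimulated genes were mixed, with 14 higher and 8 lower of 26. The antiviral gene RSAD2 rose to 5.31 FPKM, against 0.810 FPKM, and IFI27 fell to 1.51 FPKM, against 5.64 FPKM. Of 82 cytosolic ribosomal protein genes 50 were called higher and 25 lower with a median of 0.10, and their many processed copies make single values uncertain.

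All 13 mRNAs of the mitochondrial genome were called lower in KO cells, with a median of -0.53. In doxorubicin, tunicamycin and control the median of the same mRNAs was 0.13, -0.69 and -0.24, and the difference between tables was not tested. MT-ND4, a complex I subunit that overlaps MT-ND4L, stood at 1048 FPKM in KO cells and 1657 FPKM in WT cells. Together these mRNAs made up 3.16% of summed FPKM in KO cells and 4.57% in WT cells. Nuclear genes of complex I did not follow, with 19 of 37 called higher and 9 lower and a median of 0.13. The share of mitochondrial mRNA is also a common sign of RNA quality, and its part in the other lists was not tested.

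Adhesion and surface signalling genes were lower more often than higher under cisplatin. Of 16 tested integrin and adhesion genes 10 were called lower and 3 higher, with a median of -0.38, which was -0.24 with a bound of 1 FPKM. CD44 (chr11:35138870-35232402, plus strand), the hyaluronan receptor, fell to 193 FPKM in KO cells, against 457 FPKM in WT cells. The laminin receptor subunit ITGA6 fell to 17.3 FPKM, against 47.8 FPKM, and ITGB5 (chr3:124761948-124901418, minus strand), a vitronectin receptor subunit, to 16.2 FPKM, against 41.3 FPKM. ITGB1, the subunit shared by most matrix integrins, was not called, at 157 FPKM in KO cells and 153 FPKM in WT cells. Receptor tyrosine kinases with ERBB ligands had 4 lower and 2 higher calls of 8. EGFR (chr7:55019021-55211628, plus strand) fell to 13.5 FPKM in KO cells, against 28.6 FPKM in WT cells, and the hepatocyte growth factor receptor MET (chr7:116672390-116798386, plus strand) to 8.86 FPKM, against 21.8 FPKM. The ligand HBEGF rose to 107 FPKM, against 62.2 FPKM. Of 28 immediate early and MAPK feedback genes 18 were called lower and 5 higher, among them the transcription factor KLF6 at 12.1 FPKM in KO cells and 27.1 FPKM in WT cells, the AP-1 subunit FOSL1 at 107 and 185 FPKM and the ERK phosphatase DUSP6 at 35.2 and 61.2 FPKM. FOS itself rose to 9.08 FPKM, against 6.01 FPKM in WT cells. In doxorubicin, tunicamycin and control, the integrin and adhesion list had medians of -0.07, -0.01 and 0.29. The list of receptor kinases and ERBB ligands had -0.24 under cisplatin, against -0.41, 0.02 and 0.18. The immediate early list had -0.18, against 0.21, -0.31 and 0.01. These differences between tables were not tested.

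Matrix remodelling genes held changes in both directions. Of 19 matrix protease and plasminogen genes 11 were called lower and 6 higher, with a median of -0.33. Beside MMP1, the plasminogen activator PLAT fell to 47.3 FPKM in KO cells, against 84.8 FPKM in WT cells, while its relative PLAU rose to 146 FPKM, against 98.9 FPKM. Of the protease inhibitors, TIMP4 rose to 21.6 FPKM, against 2.08 FPKM, and TIMP3 to 53.5 FPKM, against 18.8 FPKM, whereas TIMP2 fell to 64.1 FPKM, against 107 FPKM. Collagens and matrix genes had 9 higher and 10 lower calls of 24. SPARC, a collagen-binding protein, rose to 13.2 FPKM, against 1.57 FPKM in WT cells, and COL8A1 fell to 2.94 FPKM, against 9.54 FPKM. The TGF-beta list had 11 lower and 5 higher calls of 20. Activin subunit INHBB fell to 11.2 FPKM, against 39.0 FPKM, and its inhibitor FST to 17.6 FPKM, against 37.4 FPKM, while the induced matrix protein TGFBI rose to 84.9 FPKM, against 32.4 FPKM. Wnt genes had 8 lower and 3 higher calls of 15 and Notch genes 5 and 1 of 8. WNT5A, a noncanonical ligand, rose to 9.09 FPKM, against 0.332 FPKM in WT cells, and LRP5, a Wnt coreceptor, fell to 2.36 FPKM, against 7.75 FPKM. Cytokines were divided as well, with 4 higher and 3 lower calls of 10 and a median of -0.02 that was 0.67 with a bound of 10 FPKM, where EBI3 rose to 17 FPKM, against 1.19 FPKM, and CXCL8 fell to 11.3 FPKM, against 25.3 FPKM.

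**Figure D3:**
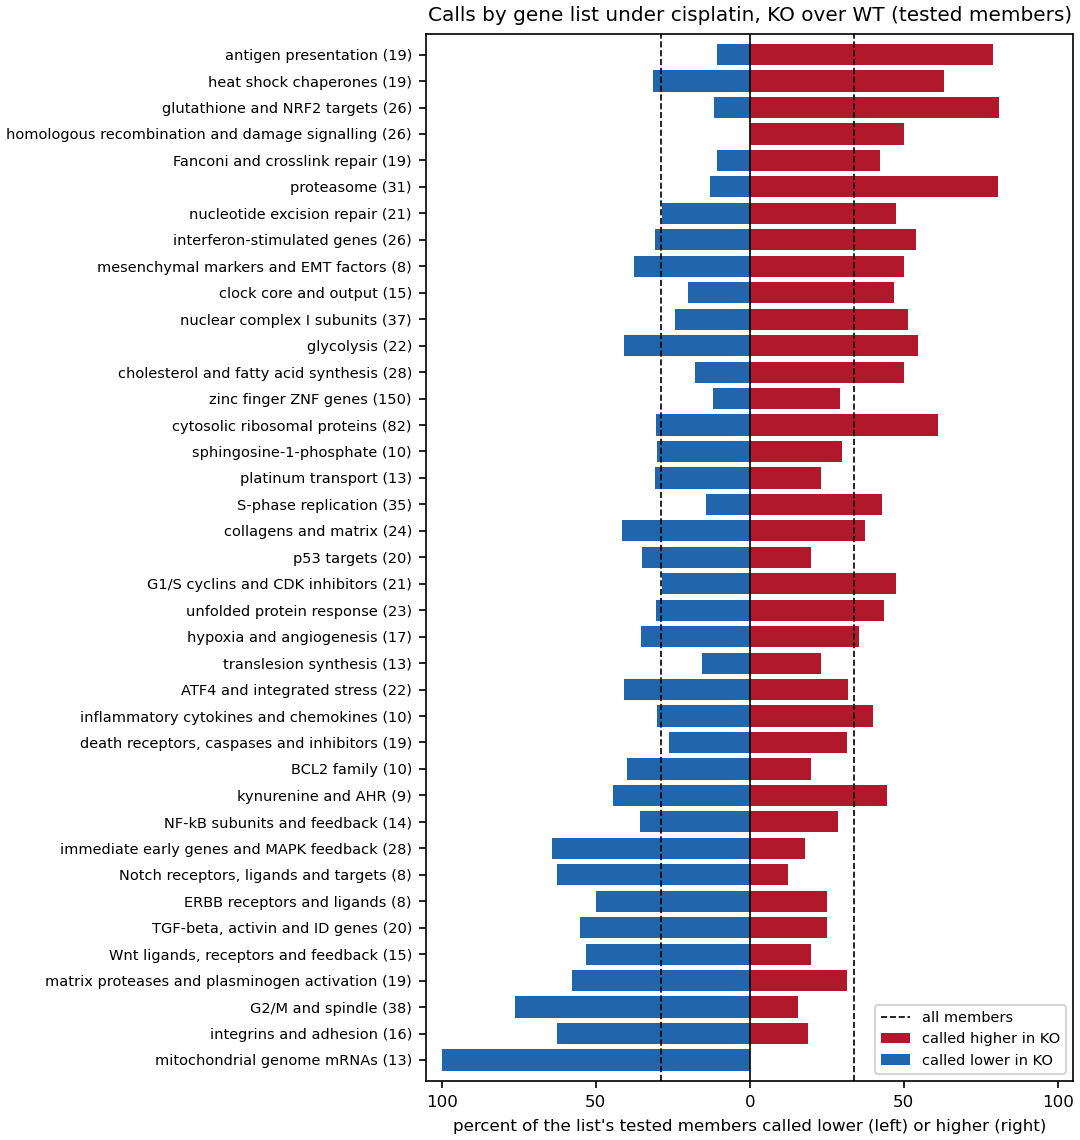
For each gene list with 8 or more tested members (number in brackets), the red bar gives the percent called higher and the blue bar the percent called lower in KO cells under cisplatin, ordered by the list's median log2 ratio. The chromosome segments and the epithelial markers are not drawn. Dashed lines mark all members, at 33.8% higher and 29.0% lower, and the mitochondrial mRNAs, with 13 of 13 called lower, stand at the bottom.

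Metabolic and stress lists held calls in both directions. Cholesterol and fatty acid synthesis had 14 higher and 5 lower calls of 28, with the desaturase SCD at 35.8 FPKM in KO cells and 20.1 FPKM in WT cells and the regulator SREBF1 lower at 14.0 and 28.5 FPKM. Glycolysis had 12 higher and 9 lower of 22. ALDOC, an aldolase, rose to 15.1 FPKM in KO cells, against 4.14 FPKM in WT cells, and the glucose transporter SLC2A1 fell to 174 FPKM, against 347 FPKM. Unfolded protein response genes had 10 higher and 7 lower calls of 23, and ATF4 and integrated stress genes 7 and 9 of 22. In that last list the folate enzyme MTHFD2 rose to 147 FPKM in KO cells, against 64.5 FPKM in WT cells. Hypoxia and angiogenesis genes had 6 higher and 6 lower calls of 17, kynurenine and AHR genes 4 and 4 of 9, sphingosine-1-phosphate genes 3 and 3 of 10, and NF-kB genes 4 and 5 of 14. Mesenchymal markers had 4 higher and 3 lower calls of 8, and epithelial markers 4 and 3 of 9. Of 150 tested ZNF zinc finger genes 44 were higher and 18 lower. Only 3 of 89 clustered histone genes reached 5 FPKM, and all 3 were called lower, with a median of -0.70. With a bound of 1 FPKM that median was -0.38, and with no bound -0.33.

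The ratio under cisplatin changed with the genomic span of a gene, a description chosen after the values were seen. Among the 8766 tested protein-coding members, genes spanning under 10 kb had a median log2 ratio of 0.12 (1795 genes), those of 10 to 30 kb 0.10 (2741), those of 30 to 100 kb 0.02 (3025), those of 100 to 300 kb -0.23 (1101) and those over 300 kb -0.37 (104). Of genes under 10 kb, 46.2% had a higher and 25.7% a lower call. Of genes over 300 kb, 10.6% were called higher and 53.8% lower, and 17.3% were called at least 2-fold lower. Genes over 100 kb supplied 117 of the 301 protein-coding genes called at least 2-fold lower and 19 of the 214 called at least 2-fold higher. In control the medians of the same 5 classes were 0.07, 0.03, -0.01, 0.01 and 0.02, and in tunicamycin they were 0.10, 0.06, 0.04, 0.01 and 0.08. In doxorubicin they were 0.17, 0.06, -0.04, -0.09 and -0.08, a fall of the same direction that stopped at the longest genes. The difference between tables was not tested, and genes are not replicates.

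Among all genes over 100 kb, the median was -0.13 in the class with the lowest GC content of the transcript, -0.31 in the middle and -0.62 in the highest. By level, it was -0.26 in the lowest, -0.26 in the middle and -0.10 in the highest class. By transcript length, it was -0.10 for short, -0.22 for middle and -0.27 for long transcripts. The class of short transcripts over 300 kb, with 12 genes, had a median of 0.05. Without the segments of chromosomes 13 and 7 it was -0.25 over 1150 genes. Against the control table, the median of cisplatin over control for genes over 300 kb was -1.05 in KO cells and -0.64 in WT cells, and for genes under 10 kb it was 0.36 in KO cells and 0.35 in WT cells. Those values cross tables that were normalized separately. Exceptions were present among long genes, such as NRG1, an ERBB ligand gene of 1129 kb, which rose to 13.5 FPKM in KO cells, against 9.93 FPKM in WT cells. Some lists above hold many long genes. The median span was 74.7 kb for receptor kinases and ERBB ligands and 63.8 kb for integrins and adhesion, against 27.3 kb for all members, while it was 54.6 kb for the homologous recombination list, which had no lower call.

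**Figure D4:**
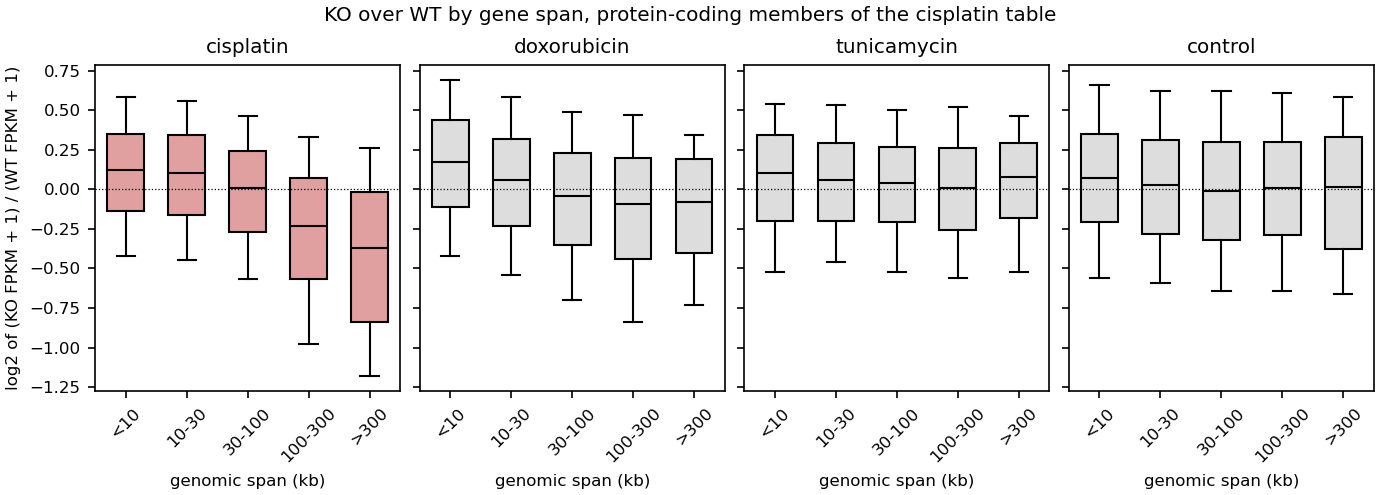
Log2 ratio of KO over WT for protein-coding members of the cisplatin table by genomic span, in each of the 4 tables. Boxes hold the middle of the genes from the 25th to the 75th percentile, lines in boxes are medians and whiskers reach the 10th and 90th percentiles. Under cisplatin the medians go down to -0.37 over 300 kb, and in control they lie between -0.01 and 0.07.

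A few genes passed 2-fold under cisplatin with a small ratio elsewhere. By the bound of 0.32 on the log2 ratio in each other table, 12 genes qualified, 10 of them lower in KO cells. APP (chr21:25880550-26171128, minus strand), the amyloid precursor protein, fell to 72.3 FPKM in KO cells, against 167 FPKM in WT cells, while in control it had 189 FPKM in KO cells and 200 FPKM in WT cells. STIM1 (chr11:3854527-4093210, plus strand), the calcium sensor of the endoplasmic reticulum, fell to 4.01 FPKM, against 11.0 FPKM. FUT8 (chr14:65410592-65744121, plus strand), which adds core fucose to glycans, fell to 5.81 FPKM, against 14.6 FPKM, and had 35.8 FPKM in KO cells and 37.5 FPKM in WT cells in control. ITGB5, given above, also belongs here. The others that fell were RPH3AL, a secretion effector, to 7.62 FPKM, against 21.2 FPKM in WT cells, the adaptor SHB to 9.43 FPKM, against 22.3 FPKM, the splicing factor RSRC1 to 4.67 FPKM, against 11.2 FPKM, and the ubiquitin ligase WWP2 to 2.55 FPKM, against 6.49 FPKM. EHMT1, a histone methyltransferase, and ARHGEF28, a guanine nucleotide exchange factor, both had a log2 ratio of -1.0. A small ratio elsewhere was not always without a call. APP was called lower in doxorubicin, tunicamycin and control, ITGB5 in doxorubicin and tunicamycin, and RPH3AL in doxorubicin. EHMT1 was called lower in tunicamycin and ARHGEF28 in tunicamycin and control, while RSRC1 was called higher in tunicamycin. The 10 genes that fell span 139 to 440 kb, against a median of 27.3 kb for all members, of which 1231 of 9235 span over 100 kb. The 2 that rose were PCDH9 (chr13:66302834-67230445, minus strand), a protocadherin on the raised part of chromosome 13, to 5.28 FPKM in KO cells, against 1.09 FPKM in WT cells, and KTN1-AS1, which lies antisense to KTN1 and overlaps it, so that its reads cannot be told apart if strand was not used. PCDH9 was under 1 FPKM and untested in the other tables, at 0.251 FPKM in KO cells and 0.0873 FPKM in WT cells in doxorubicin, 0.32 and 0.232 FPKM in tunicamycin and 0.720 and 0.398 FPKM in control. At such levels the added 1 FPKM holds the ratio near 0: the log2 ratios without it in the authors' deposited table were 1.53, 0.46 and 0.86, so PCDH9 is not shown to differ less there.

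Calls that reversed in all 3 other tables were small. Among the 314 genes at least 2-fold lower under cisplatin, 3 were called higher in doxorubicin, 5 in tunicamycin and 7 in control. Of the 235 at least 2-fold higher, 0 were called lower in any of these. Of the 9221 tested members, 101 were called in one direction under cisplatin and in the other direction in doxorubicin, tunicamycin and control alike. Of these, 76 were lower and 25 higher under cisplatin, and 0 reached 2-fold under cisplatin. LOXL2, a collagen crosslinking enzyme, fell to 57.5 FPKM in KO cells, against 95.4 FPKM in WT cells, with log2 ratios of -0.72 under cisplatin and 0.43, 0.24 and 0.35 in doxorubicin, tunicamycin and control. COL13A1 (chr10:69801867-69964275, plus strand), a membrane collagen, fell to 14.2 FPKM, against 23.9 FPKM, and had 0.39, 0.41 and 0.12 in the same tables. The ubiquitin ligase adaptor SPSB1 fell to 9.90 FPKM, against 15.8 FPKM, with 0.63, 0.59 and 0.64 elsewhere. DIAPH3 (chr13:59665583-60163987, minus strand), an actin nucleator of 498 kb, fell to 6.78 FPKM, against 10.7 FPKM, although it lies on the part of chromosome 13 where most genes were higher. The glypican GPC1, the nuclear pore gene NUP210, the glucosidase MOGS, the helicase DDX39A and the glycolytic enzyme PFKP had ratios between -0.68 and -0.46 under cisplatin. MT2A was the most abundant of these 10, and its ratio of -0.45 stood beside 0.25, 0.25 and 0.12. The differences between tables were not tested.

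**Figure D5:**
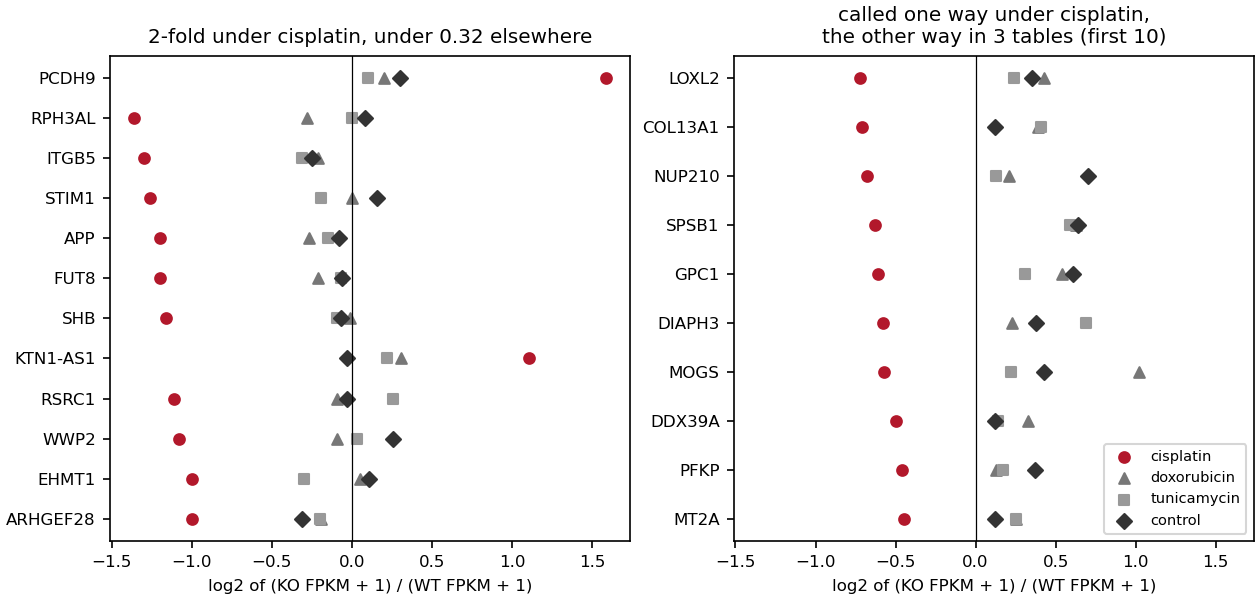
Log2 ratio of KO over WT in the cisplatin table (red circles) and in the doxorubicin, tunicamycin and control tables (grey triangles, grey squares and dark diamonds). The left panel holds the 12 genes at least 2-fold under cisplatin and under 0.32 in size elsewhere, from PCDH9 at 1.59 to RPH3AL at -1.36 under cisplatin, and the right panel the 10 largest of the 101 genes with calls in opposite directions, all of them lower under cisplatin.

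At the edge of the 5 FPKM bound, the genes just inside were SPG11 (5.001 FPKM in the higher group), ACADSB (5.004), SNORA7A (5.006), PRSS12 (5.008) and CTSW (5.008). Just outside were KBTBD7 (4.999), DENND1A (4.999), CLIP2 (4.998), NEO1 (4.994) and STAU2 (4.992). The netrin receptor NEO1, left out by this margin, had 0.246 FPKM in KO cells and 4.99 FPKM in WT cells. The protease CTSW, kept by it, had 5.01 FPKM in KO cells and 0.976 FPKM in WT cells.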

How the data were processed

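RNA-seq of 16 samples in 8 groups of 2 was grouped by the genotype and treatment labels. The submitters' processing notes name build hg38 and the tools STAR 2.5.3, Trimmomatic 0.35, FastQC 0.11.5, Cuffdiff and Cufflinks; the sources used here do not state the annotation release, strand use or filters. Per the file headers, the FPKM values were made by the authors with Cuffdiff as 1 value per group. The log2 ratios deposited by the authors are KO over WT FPKM with no pseudocount, which recomputation matched to within 3.74e-05 under cisplatin. The p-values deposited by the authors come with q-values that recomputation of the Benjamini-Hochberg adjustment over the 14253 genes tested under cisplatin matched to within 5.20e-07. They measure the spread Cuffdiff estimated, which may be technical.

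The members, gene lists, named-gene rule and alternatives were chosen with earlier results of these data known, and the description by gene span was added after values were seen. Members had 5 FPKM or more in one group, and the ratio used a pseudocount of 1 FPKM. No count, SD or interval could be had, and the tables were normalized separately. Named genes were the clock genes, the 12 largest called changes in each direction, up to 4 called genes per list and direction with any member a list turns on, 10 genes at least 2-fold under cisplatin and under 0.32 in size elsewhere (all 12 are given), 10 genes called the other way in the other tables, and the genes at the bound. All symbols of the 49 lists were found. Gene positions and spans are from GENCODE 29 (GRCh38) by Ensembl gene ID, matched for 9213 of 9235 members, and promoters are from RefSeq (GRCh38.p14) by symbol. The 22 genes that Cuffdiff left out as too deep are listed at 0 and were not used. Tools were Python 3.11.15, pandas 2.3.3, numpy 2.4.6 and matplotlib 3.10.9, and the ratio was tested on simulated data. Alternatives were another pseudocount, rescaling, centring, other bounds on FPKM and q, and leaving out 2 chromosome segments or genes over 100 kb. A few named members are not reported here.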

Additional observations from a re-analysis of the deposited data

Results flagged for a closer look

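Under cisplatin, 76 of the 9221 tested members were called lower in KO cells while being called higher in doxorubicin, tunicamycin and control. Another 25 were called higher while being called lower in all 3. They are listed here because the direction of KO against WT differed between treatments, and the difference itself was not tested, since each table gives 1 value per group. The median span was 32.1 kb for the 76 genes and 13.1 kb for the 25, against 27.3 kb for all members.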

How the results depend on the processing

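No paired analysis was possible because the deposited table gives 1 value per group and none per replicate; leaving out a replicate and a replicate block were not run for the same reason. Requiring a deposited log2 ratio of at least 1 in size left 284 higher and 405 lower calls. Without genes spanning over 100 kb, an alternative chosen after seeing the data, 197 genes were called at least 2-fold lower, against 314, and 212 at least 2-fold higher, against 235, so that 51.8% of such calls were higher, against 42.8%. Under the other planned settings the 4 counts stayed within 1.5 times, with at least 2-fold higher calls between 158 (without the chromosome 13 and 7 segments) and 304 (1 FPKM bound, and no bound), and lower ones between 227 (10 FPKM bound) and 449. The median of protein-coding members over 100 kb lay between -0.28 and -0.24 in all settings that gave a value. Of 50 list medians, 3 moved by 0.1 or more with a pseudocount of 0.1 FPKM, 0 with rescaling or centring, 14 with a bound of 1 FPKM, 11 with one of 10 FPKM, 16 with no bound, 1 without the segments and 4 without genes over 100 kb. Mismatch repair had a median of -0.10 with all its genes and 0.28 without genes over 100 kb; matrix proteases had -0.33 and -0.10. With bounds of 1 and 10 FPKM, inflammatory cytokines had 0.30 and 0.67, against -0.02. Collagens had 0.08, and -0.11 at 1 FPKM and -0.16 with no bound. Kynurenine and AHR genes had -0.14, and 0.07 both at 10 FPKM and without the segments. Signs also turned for medians near 0: translesion synthesis (-0.01, and 0.05 at 10 FPKM), hypoxia (0.02, and -0.02 rescaled or centred and -0.08 at 10 FPKM) and ZNF genes (0.10, and -0.01 with no bound). The causes were not tested. Of 100 named genes at 2-fold, CCNE1, CD74 and RPL21 came to 0.96 to 0.99 on the log2 scale after rescaling or centring, and 0 changed sign. Without fragment counts, the error of low genes cannot be given.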
